A study of Homo sapiens with 6 samples.

Results

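Lysophosphatidic acid (LPA) and sphingosine 1-phosphate (S1P) are small lipids that act outside the cell through receptors of the G protein-coupled family. The enzyme autotaxin, encoded by ENPP2, makes LPA from lysophosphatidylcholine, and the lipid phosphate phosphatases PLPP1, PLPP2 and PLPP3 remove the phosphate from LPA and S1P at the cell surface and on internal membranes. Through the G proteins of the GNA12 and GNA13 type the receptors switch on the small GTPase RhoA, which contracts actin and feeds the transcription factor SRF and the coactivators YAP and TAZ. The 10 genes described here are the 3 phosphatases, autotaxin, the LPA receptors LPAR1, LPAR2, LPAR3 and LPAR6, and the S1P receptors S1PR1 and S1PR3, matched by symbol among the 38900 genes of the table. The set was chosen by the normalized counts of PLPP3, which were 5.14 times higher in control than in treated cells, so the difference of PLPP3 is given as a description with no test.

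Their expression was read from 6 RNA sequencing libraries of hTERT RPE1, an established human retinal pigment epithelial line immortalised with telomerase. All cultures had been held at 100% confluency for 5 days to make them quiescent. The 3 treated cultures received 100 nM combretastatin A4 (CA4), which binds tubulin and takes microtubules apart, for 6 hours, and the 3 control cultures received 0.1% DMSO for the same time. The groups ask how the transcripts of a cell that is not dividing differ once its microtubules are lost. Nothing in the labels says that the replicates came from separate thaws or days, so the errors measure the spread between these cultures, which may be technical.

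The libraries held between 19524936 and 22538004 reads, and values below are normalized counts, each gene's reads divided by a scaling factor of its library. At this depth 3 reads, the most that a listing of 0 allows, are worth between 2.80 and 3.37 normalized counts, which covers counting error only. Of 14 marker genes of retinal pigment epithelium, 8 averaged 10 normalized counts or more, led by the keratins KRT8 and KRT18, while TTR and DCT were at 0 and RLBP1, LRAT, TYR and TYRP1 were near 0. All 10 endothelial markers reached that mean, with summed levels of 1442 to 2100 in DMSO and 1856 to 4222 in CA4. Of 8 leukocyte markers CD3E and ITGAM were among those at 0, and the summed level of the 8, nearly all CD68 and CSF1R, was 843 to 1036 in DMSO and 662 to 840 in CA4.

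PLPP3 is on chromosome 1, minus strand, from 56494747 to 56645301 in GENCODE 29 (GRCh38), with 9 merged exons. RefSeq starts the gene at 56579563, inside that span. A promoter window of 250 bases before the RefSeq start was held for 8 of the 10 genes, PLPP1 and ENPP2 having no entry, and that of PLPP3 is shown because PLPP3 had the largest log2 difference of the 10. The stretch at chr1:56579585-56579813 (GRCh38.p14, minus strand, RefSeq) covers bases -250 to -22 from the RefSeq start, read 5′ to 3′, with the only motif match in capitals:
PLPP3: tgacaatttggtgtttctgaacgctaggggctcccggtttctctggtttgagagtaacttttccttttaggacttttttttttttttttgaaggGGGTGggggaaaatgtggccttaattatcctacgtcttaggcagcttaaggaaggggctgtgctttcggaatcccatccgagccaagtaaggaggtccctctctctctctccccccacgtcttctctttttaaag

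The capitals mark CACCC on the opposite strand, the core bound by KLF factors, at bases -156 to -152, and 54.7% of the 35116 RefSeq windows of this length hold CACCC on one strand or the other. The 7 other motifs searched on both strands had no match in the 250 bases before the PLPP3 start. These were the GC box GGGCGG (in 42.6% of all windows), the TEAD motif GGAATG (11.9%), TATAAA (10.7%), the NF-kB site (9.96%), the AP-1 motif TGANTCA (6.57%), the MEF2 site (2.80%) and the CArG box of SRF (1.16%). The PLPP3 window was 46% G and C with 7 CG pairs, against medians of 58% and 11 over all windows. A match or its absence here describes letters, not binding.

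In the order of replicates 1 to 3, PLPP3 stood at 978, 1930 and 1616 normalized counts with DMSO and at 250, 401 and 228 with CA4. Every CA4 library lay below every DMSO library, and the lowest DMSO value, in replicate 1, was still well above the highest CA4 value, in replicate 2. The means were 1508 ± 485 and 293 ± 93.7 (SD, n = 3 each), a ratio of 5.14 of DMSO over CA4. On the scale log2(normalized count + 1) the difference, CA4 minus DMSO, was -2.35 with a moderated standard error of 0.29. It ranked 39 from the lowest among 13928 genes tested. It lay between -2.63 and -2.14 when each library in turn was left out.

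PLPP1, a broadly expressed phosphatase of the same kind, had 577, 694 and 768 normalized counts in DMSO and 385, 471 and 441 in CA4, in the order of replicates. Its groups did not overlap either. The fall from 679 ± 96.6 to 432 ± 44 (SD, n = 3 each) was -0.65 on the log2 scale (SE 0.14, limma adjusted p = 0.0465 over all genes). This call was marginal and held in 8 of 16 alternative settings. In limma the adjusted p was 0.0285 with libraries scaled to the same total and 0.0260 without DMSO replicate 1. With the replicate number as a block it was 0.00821 in limma. The call also held in edgeR (adjusted p = 0.0480) and in DESeq2 (adjusted p = 0.00218). It did not survive leaving out DMSO replicate 2 or 3 or any 1 of the CA4 replicates, with adjusted p-values of 0.0676 to 0.159 in limma, under quantile normalization (0.0622), with no filter on low values (0.0533) and with no variance trend (0.0927), while the difference stayed between -0.76 and -0.55. In GENCODE 29, 23.9% of the exon bases of PLPP1 also lie in MTREX on the opposite strand. MTREX, named for this overlap, had 1426 ± 282 and 1635 ± 203 normalized counts in DMSO and CA4 (SD, n = 3 each; log2 difference 0.21, limma adjusted p = 0.471), and how reads were assigned to the shared bases is not given in the sources used here.

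PLPP2, the third phosphatase, had 275, 293 and 215 normalized counts in DMSO and 289, 246 and 163 in CA4. The groups overlapped over most of their range. Its log2 difference of -0.19 had a 95% interval from -0.74 to 0.35 (limma adjusted p = 0.677).

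**Figure D1:**
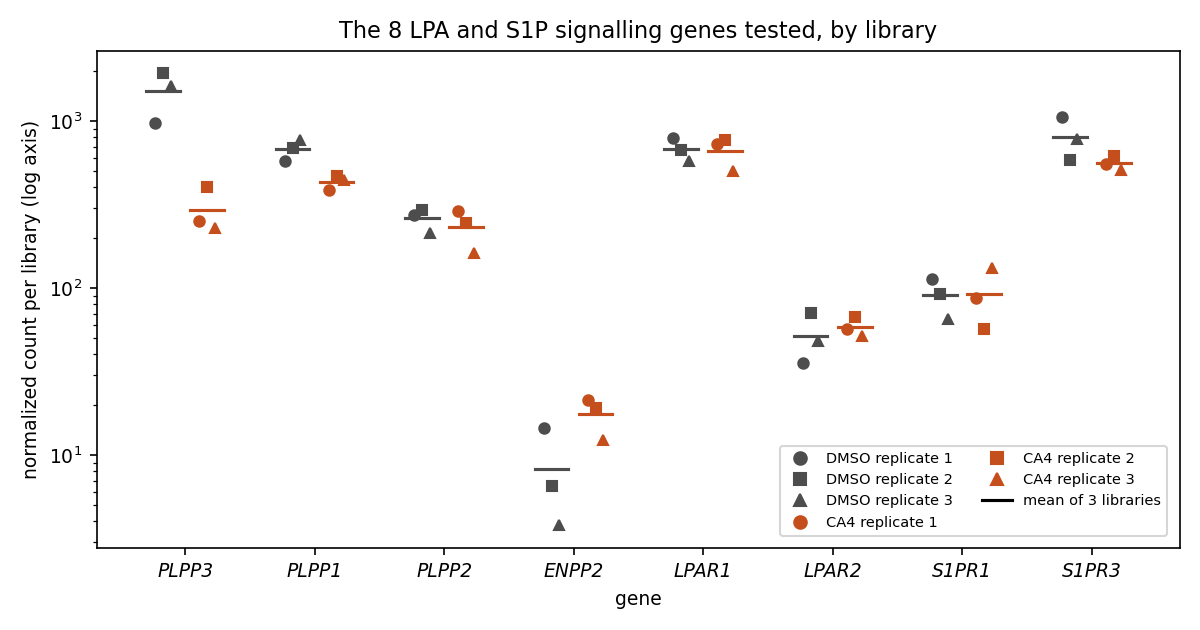
Normalized counts (log axis) of the 8 genes abundant enough to be tested, 1 point per library, with bars at the mean of 3 DMSO (grey) and 3 CA4 (orange) libraries. PLPP3 and PLPP1 have groups that do not overlap, and the other 6 genes overlap.

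The counts of the 3 phosphatases can be set against each other inside each library, where any scaling cancels. PLPP3 was 1.70, 2.78 and 2.10 times PLPP1 in the DMSO libraries and 0.651, 0.850 and 0.518 times PLPP1 in the CA4 libraries. The order of the pair was therefore turned in all 6 libraries, PLPP3 ahead by count in DMSO and PLPP1 in CA4. PLPP3 made up 60.6% ± 6.5 of the summed normalized counts of the phosphatases with DMSO and 30.1% ± 4.95 with CA4 (SD, n = 3 each). The summed counts came to 2448 ± 558 with DMSO and to 958 ± 145 with CA4 (SD, n = 3 each). These values contain the difference that chose the genes and are descriptions.

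Counts grow with transcript length, so levels of different genes were compared per kilobase of the longest coding transcript in GENCODE 29. In DMSO the level was 458 ± 147 for PLPP3 and 425 ± 60.5 for PLPP1 (SD, n = 3 each), neighbours that did not differ beyond their spread. LPAR1 and PLPP2 followed at 187 ± 29.2 and 187 ± 29.3, also not apart, and S1PR3 at 94.7 ± 27.5 (SD, n = 3 each). S1PR1 at 31.1 ± 8.19 and LPAR2 at 20.3 ± 7.03 overlapped within their errors, and ENPP2 stood at 2.53 ± 1.70 (SD, n = 3 each). In CA4 PLPP1 was highest at 271 ± 27.5, followed by LPAR1 at 183 ± 39.8 and PLPP2 at 166 ± 45.9, which did not differ beyond their spread, then PLPP3 at 89 ± 28.5 and S1PR3 at 66 ± 6.23, which also lay within their spread (SD, n = 3 each). Per kilobase of all merged exons PLPP2 dropped to 36.9 ± 5.80 in DMSO, below S1PR3 at 59.3 ± 17.2 (SD, n = 3 each), so its place depends on which length is used. By that length PLPP1 at 337 ± 47.9 stood ahead of PLPP3 at 285 ± 91.7 in DMSO (SD, n = 3 each), again not apart beyond their spread.

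Autotaxin was barely expressed. ENPP2 had 14.5, 6.54 and 3.80 normalized counts in DMSO and 21.3, 19.1 and 12.3 in CA4, or 4 to 22 reads per library. DMSO replicate 1 lay above CA4 replicate 3, so the groups overlapped. The log2 difference of 1.13 (SE 0.56) had a 95% interval from -0.18 to 2.44 and missed the threshold (limma adjusted p = 0.281).

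Among LPA receptors LPAR1, the most widely expressed of the family, had 790, 669 and 578 normalized counts in DMSO and 732, 765 and 499 in CA4. Replicate 3 was lowest in each group, and the groups lay over one another. The log2 difference of -0.04 had a 95% interval from -0.49 to 0.40 (limma adjusted p = 0.924), which leaves out a change of the size seen for PLPP3. LPAR2 had 35.7, 71.1 and 48.4 in DMSO and 57, 67.3 and 51.3 in CA4, with all CA4 values inside the DMSO range. Its log2 difference was 0.22 with a 95% interval from -0.48 to 0.92 (limma adjusted p = 0.712).

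LPAR3 was listed at 0 in all 6 libraries, and LPAR6 had from 0 to 5 reads per library. Neither was tested, and no fold is given, since LPAR6 exceeded 3 reads only in DMSO replicate 3. LPAR6 lies within RB1 on the opposite strand and shares no exon bases with it in GENCODE 29.

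S1PR3, a receptor that couples to several G proteins, had 1053, 588 and 776 normalized counts in DMSO and 556, 617 and 512 in CA4. The DMSO libraries were spread widely, and DMSO replicate 2 lay below CA4 replicate 2. The means of 806 ± 234 and 561 ± 53 (SD, n = 3 each) differed by -0.48 on the log2 scale (SE 0.20), which had an unadjusted p of 0.0472 in limma and missed the threshold after adjustment (limma adjusted p = 0.212). Without DMSO replicate 1 the difference was -0.27.

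S1PR1, the receptor that keeps endothelial junctions closed, had 113, 92.6 and 65.5 normalized counts in DMSO and 87, 57.2 and 132 in CA4. CA4 replicate 3 was the highest and CA4 replicate 2 the lowest of all 6 libraries. The log2 difference of -0.02 had a 95% interval from -0.82 to 0.78 (limma adjusted p = 0.981), and it was -0.32 without CA4 replicate 3 and 0.28 without CA4 replicate 2. The summed level of the 10 endothelial markers was 2100, 1875 and 1442 in DMSO and 2396, 1856 and 4222 in CA4, so the library with the most S1PR1 was also the one with the most endothelial marker counts, and 8 of the 10 markers were highest there. In that library VWF, which encodes a clotting protein stored in endothelial cells, had 1732 normalized counts, against 509 to 805 in the others. None of the 10 markers passed the threshold in limma, edgeR or DESeq2, and 1 of 10 had an unadjusted p under 0.05 in limma, as had 23% of all tested genes. Of the 10, 8 had a positive difference, with a median of 0.58 on the log2 scale, against -0.01 for all tested genes. The part of endothelial transcripts in the S1PR1 values was not tested. In bulk RNA, more cells with such transcripts and more of these transcripts per cell cannot be told apart.

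**Figure D2:**
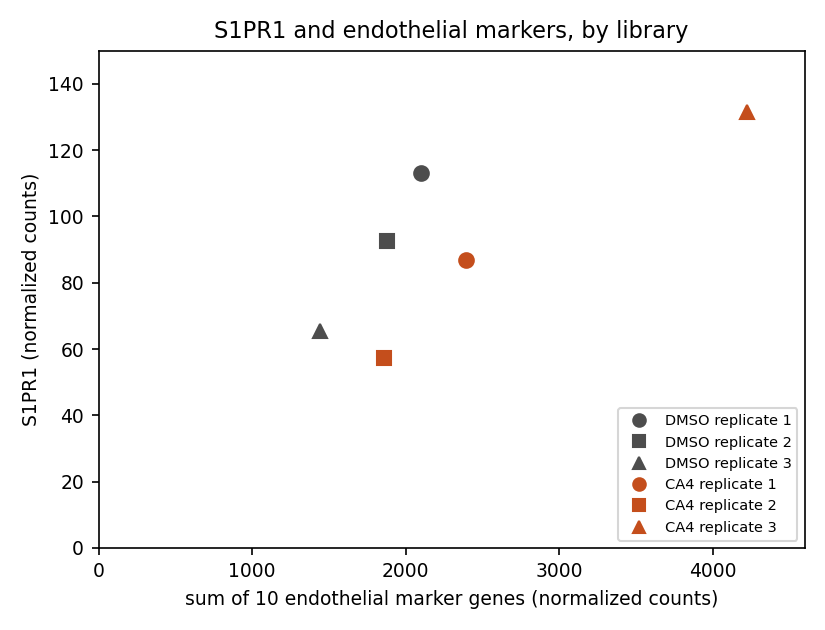
S1PR1 (vertical) against the sum of 10 endothelial marker genes (horizontal), both in normalized counts, 1 point per library. CA4 replicate 3 is at the top right, with 132 and 4222, and the other 5 libraries lie between 1442 and 2396 on the horizontal axis.

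In all, 8 of the 10 genes averaged 10 normalized counts or more and were tested, and PLPP3, which chose the set, is left out of the count of calls. Of the other 7, only PLPP1 passed an adjusted p of 0.05 in limma, lower in CA4, where 1.97% of all tested genes were lower and 4.94% passed in either direction. PLPP1 was also the only 1 of the 7 whose groups did not overlap, with all CA4 values below, as in 13.4% of all tested genes (27.7% in either direction). The median log2 difference of the 7 was -0.04, against -0.01 for all tested genes. None of the 7 passed without DMSO replicate 2 or 3 or any 1 of the CA4 replicates.

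The rest of the pathway was read from 7 lists. Of 8 further members of the phosphatase family found in the table, 4 were abundant enough to be tested, PLPP4, PLPP5, PLPP6 and PLPPR2. None passed in limma, edgeR or DESeq2, and 2 had an unadjusted p under 0.05 in limma, where 23% of all tested genes did. These lay on opposite sides. PLPP4 had 1673, 1589 and 1340 normalized counts in DMSO and 1290, 1295 and 1087 in CA4 (log2 difference -0.32, SE 0.12, limma adjusted p = 0.160), while PLPP5 had 596, 645 and 675 against 811, 709 and 794 (log2 difference 0.27, SE 0.10, limma adjusted p = 0.171; named after its values were seen). PLPP3 was 1.00 ± 0.361 times PLPP4 by count with DMSO and 0.238 ± 0.0624 times with CA4 (SD, n = 3 each).

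Of 9 further LPA and S1P receptors only S1PR2, which couples to the GNA12 and GNA13 proteins, reached the level for testing. It had 194, 150 and 67.4 normalized counts in DMSO and 191, 249 and 204 in CA4, where DMSO replicate 1 overlapped CA4 replicate 1. The log2 difference was 0.76 with a 95% interval from -0.09 to 1.62 (limma adjusted p = 0.266), and it was 0.32 without DMSO replicate 3 and 1.08 without DMSO replicate 1. P2RY10, GPR34 and GPR174 were listed at 0 in all libraries.

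Enzymes that make or use LPA inside or outside the cell gave 20 tested genes of 24. None passed in limma, 1 passed in edgeR and 3 in DESeq2, where edgeR called 4.62% and DESeq2 11.6% of all tested genes, and 4 of 20 had an unadjusted p under 0.05 in limma, against 23% of all tested genes. PLD1, a phospholipase that makes phosphatidic acid, came nearest, with 180, 199 and 154 normalized counts in DMSO and 109, 110 and 101 in CA4. The CA4 libraries all lay below the DMSO libraries, and the log2 difference of -0.72 (SE 0.16) had a limma adjusted p of 0.0519. GDPD1 and PLA2G4A, named after their values were seen, had log2 differences of -1.97 and -0.75 (limma adjusted p = 0.0523 and 0.0564). GDPD1 was the edgeR call, and GDPD1, PLA2G4A and PLD1 were the 3 DESeq2 calls, all lower in CA4. The median of the list was -0.08.

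In S1P metabolism 1 gene stood out. SPHK1, the kinase that makes S1P from sphingosine, had 2128, 992 and 1032 normalized counts in DMSO and 5997, 3556 and 5393 in CA4. The groups were far apart, and replicate 1 was the highest of each. SPHK1 rose by 1.91 on the log2 scale (SE 0.32, limma adjusted p = 0.0213), 1 of 15 tested genes of the list, where 2.97% of all tested genes were higher in CA4 past the threshold. Leaving out DMSO replicate 2 or 3 or CA4 replicate 1 or 3 ended the call, with limma adjusted p-values of 0.0757 to 0.0920, as did a fit with no variance trend (0.0722). SGPL1, the lyase that breaks S1P down, named after its values were seen, had 3650 ± 240 and 3649 ± 219 normalized counts (SD, n = 3 each), a log2 difference of 0.00 with a 95% interval from -0.20 to 0.20. The ratio of SPHK1 to SGPL1 counts was 0.627, 0.269 and 0.267 in DMSO and 1.77, 0.941 and 1.43 in CA4.

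All 26 genes listed as G proteins, their regulators and their effectors were tested, with a median log2 difference of 0.01, and 2 passed, both higher, where 2.97% of all tested genes were higher. GNA11, a G protein subunit that activates phospholipase C, and RGS4, which shortens G protein signals, rose by 0.37 (SE 0.08, limma adjusted p = 0.0390) and 0.33 (SE 0.07, limma adjusted p = 0.0380) on the log2 scale. RGS4 had 9693, 9384 and 9609 normalized counts in DMSO and 11579, 12371 and 12240 in CA4. Neither call held with no filter on low values, under quantile normalization, with no variance trend, when each library was scaled to the same total, which lowers all genes by 0.10, or without any 1 library other than DMSO replicate 1. RHOA and GNA13, the link from LPA receptors to actin and named for that role, had log2 differences of -0.10 and -0.04 with 95% intervals from -0.26 to 0.06 and from -0.23 to 0.15.

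Genes known to rise when cells are given LPA were listed with part of their results known, since CXCL8, IL6, HBEGF and ANKRD1 had been seen to be higher, so their direction is not independent evidence. Of 19 tested, 12 rose and none fell past the threshold, 18 had a positive difference (16 under quantile normalization, 17 with libraries scaled to the same total), and the median log2 difference was 1.07. Of all tested genes 2.97% were higher past the threshold. Several of the 12 encode secreted factors. LIF, a cytokine of the interleukin 6 family, had 7294, 3955 and 3028 normalized counts in DMSO and 20026, 14775 and 16833 in CA4, a rise of 1.94 (SE 0.30, limma adjusted p = 0.0168). EDN1, the vasoconstrictor endothelin, went from 216 ± 32.7 to 463 ± 62 (SD, n = 3 each), a rise of 1.1 (SE 0.17, limma adjusted p = 0.0167). LIF passed in 2 and EDN1 in 3 of the 6 fits with a library left out, with limma adjusted p-values up to 0.0749 and 0.0702, and neither passed with no variance trend (0.0643 and 0.0573).

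PTGS2, the inducible prostaglandin synthase, had 73.4, 52.4 and 54.1 normalized counts in DMSO and 348, 117 and 396 in CA4 (log2 difference 2.07, SE 0.45, limma adjusted p = 0.0442), with CA4 replicate 2 far below the other 2. PTGS2 passed in 1 of the 6 fits with a library left out, that without CA4 replicate 2, and otherwise had an adjusted p of 0.0501 to 0.151 in limma, and of 0.0957 with no variance trend. PLAUR, the urokinase receptor, and the transcription factors MYC and SRF rose by log2 values of 1.18, 0.86 and 0.53 (adjusted p = 0.0430, 0.0487 and 0.0207 in limma), and CCN1, a matrix protein induced by YAP, by 1.07 (limma adjusted p = 0.0158). With a library left out, MYC and PLAUR each passed in 1 of 6 fits (limma adjusted p up to 0.161 and 0.153), SRF in 2 (up to 0.0836) and CCN1 in 4 (up to 0.0642, lost without CA4 replicate 1 or 3). Under quantile normalization and with libraries scaled to the same total neither passed (adjusted p in limma = 0.0572 and 0.0676 for MYC, 0.0519 and 0.0538 for PLAUR), and MYC also missed it in edgeR (adjusted p = 0.0531), with no filter on low values (0.0514) and with a pseudocount of 0.1 (0.0501). Not every gene of the list was higher. FOS had 22.5 ± 6.1 and 16.0 ± 5.07 normalized counts and VCL, which encodes vinculin, 39811 ± 3446 and 39761 ± 945 (SD, n = 3 each), with log2 differences of -0.48 (limma adjusted p = 0.529) and 0.00 (limma adjusted p = 0.995), both named after their values were seen. Without DMSO replicate 2 the list gave 4 calls, without DMSO replicate 3 it gave 3, without CA4 replicate 1 it gave 4, without CA4 replicate 3 it gave 3, and with no variance trend it gave 1, that of ANKRD1.

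**Figure D3:**
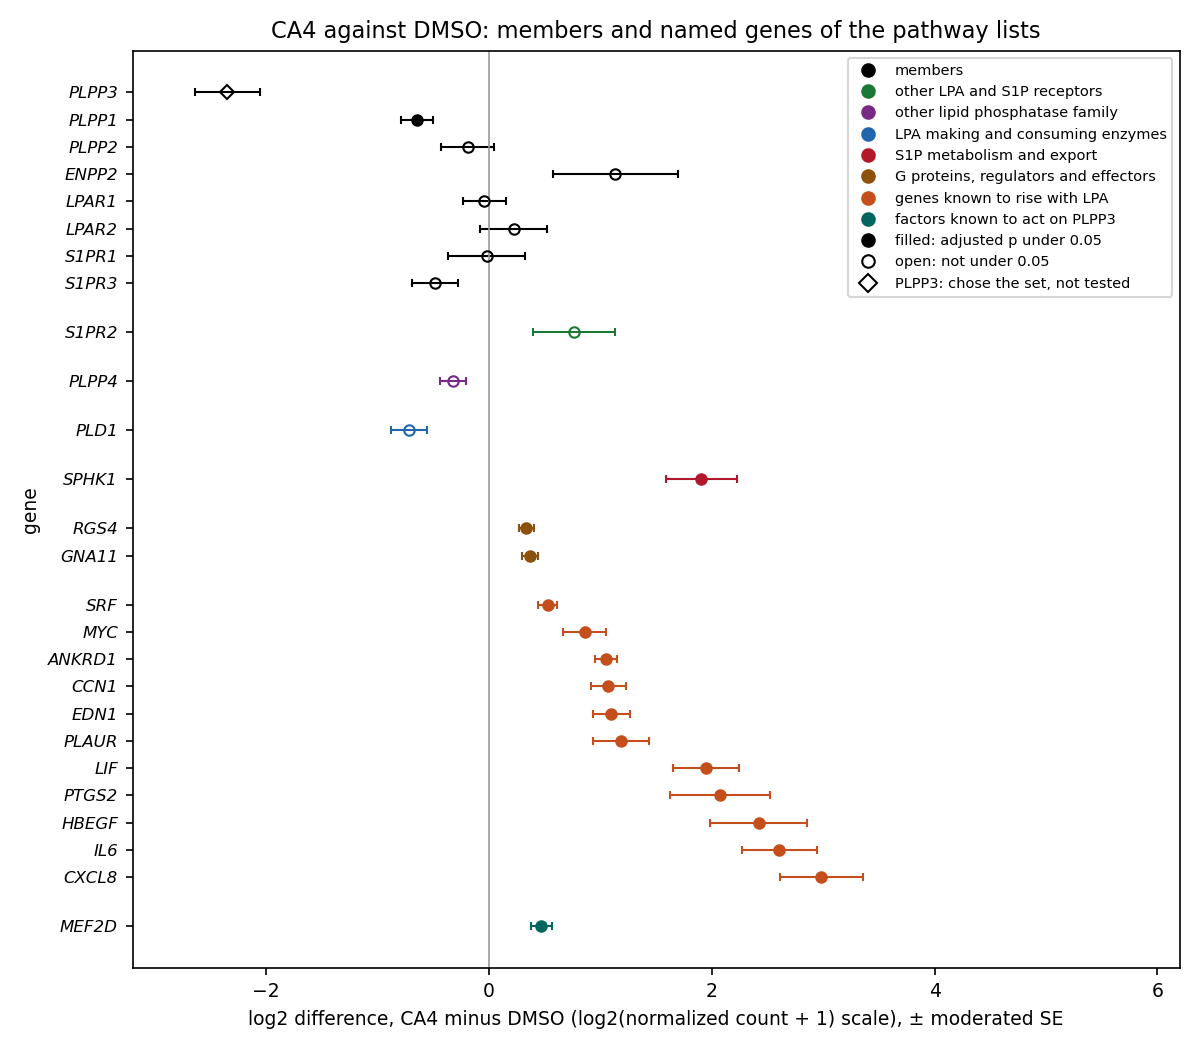
Log2 difference, CA4 minus DMSO, with moderated standard error, for the 8 tested genes and named genes of each pathway list; filled points passed an adjusted p of 0.05 and the open diamond is PLPP3, which chose the set. PLPP3 and PLPP1 lie left of 0 at -2.35 and -0.65, and SPHK1 and the plotted genes known to rise with LPA lie right of it.

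Of 5 transcription factors known to act on PLPP3 in other cells, 1 passed, higher in CA4, as did 2.97% of all tested genes. MEF2D rose by 0.47 on the log2 scale, from 1958 ± 53 to 2719 ± 285 normalized counts (SD, n = 3 each; limma adjusted p = 0.0361), a call lost without any 1 of the 6 libraries (limma adjusted p = 0.0564 to 0.119), with libraries scaled to the same total (0.0544), with no variance trend (0.0957) and under quantile normalization (0.0563). KLF2, the factor that drives PLPP3 in endothelium under flow, had 457, 528 and 409 normalized counts in DMSO and 426, 468 and 367 in CA4. KLF2 was named after its values were seen. The groups overlapped, with a log2 difference of -0.14 and a 95% interval from -0.48 to 0.19 (limma adjusted p = 0.60).

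The protein-coding genes next to PLPP3 on chromosome 1 in RefSeq, named for their position, differed less. PRKAA2, a subunit of the energy sensor AMPK, had 298, 308 and 290 normalized counts in DMSO and 238, 259 and 202 in CA4 (log2 difference -0.36, SE 0.14, limma adjusted p = 0.171). USP24, a deubiquitinase, had 1313 and 1184 on average (log2 difference -0.15, SE 0.11, limma adjusted p = 0.458).

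The genes most like PLPP3 over the 6 libraries were found by the root mean square difference of log2 values, each centred on its own gene mean, among 11682 genes that averaged 50 normalized counts or more. They were MCC, CSRNP3, STON1, PPP1R3C and SLC2A12, at differences of 0.196, 0.277, 0.288, 0.308 and 0.331, where the median of all was 1.24. MCC had 1054, 1355 and 1572 normalized counts in DMSO and 248, 394 and 220 in CA4. STON1, a protein of the endocytic machinery, had 152, 447 and 386 against 56.1, 107 and 66.9. PPP1R3C, which targets a phosphatase to glycogen, had 771, 1935 and 2021 against 188, 443 and 302. In all 5 the DMSO values lay above the CA4 values, DMSO replicate 1 was the lowest of the DMSO libraries and CA4 replicate 2 was above CA4 replicate 1, as for PLPP3. They differed from it elsewhere. CA4 replicate 3 was the lowest CA4 library in PLPP3 and MCC but lay above replicate 1 in the other 4 genes, and DMSO replicate 3 was the highest DMSO library in MCC, CSRNP3 and PPP1R3C, where PLPP3 had its highest value in replicate 2. The genes share libraries and their scaling, and the ranking was made with the group difference in it.

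**Figure D4:**
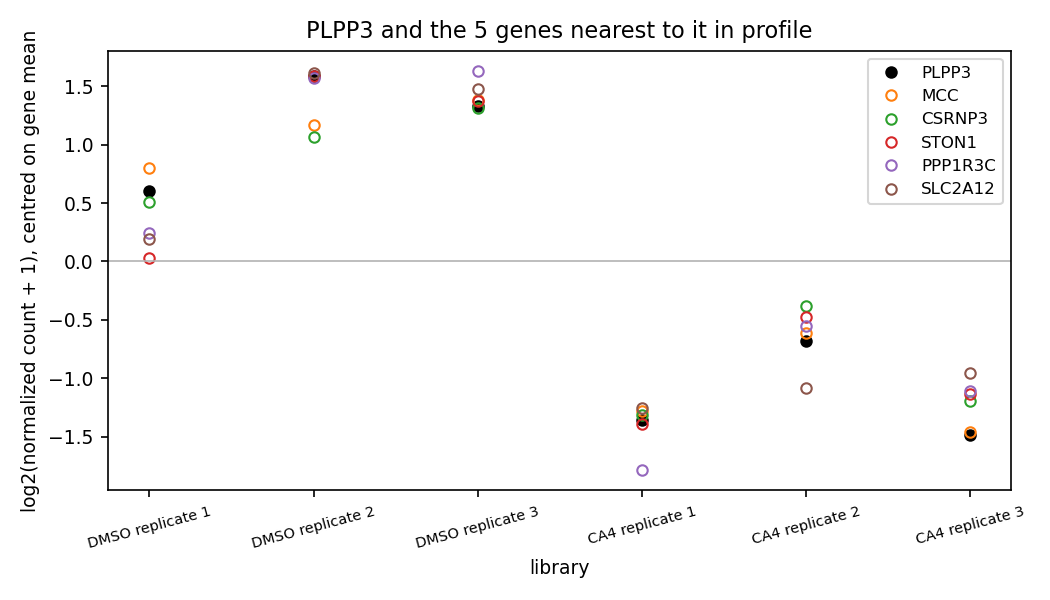
PLPP3 (black) and the 5 genes nearest to it in profile, as log2(normalized count + 1) centred on each gene's mean over 6 libraries. All 6 genes lie above 0 in the DMSO libraries, lowest in replicate 1, and below 0 in the CA4 libraries.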

How the data were processed

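PolyA RNA sequencing libraries of 3 CA4 and 3 DMSO cultures were used, grouped by their titles. The authors deposited a signal, normalized counts, in 1 table of 38900 Ensembl gene IDs. Per the submitters' processing notes, Trim Galore 0.6.6, FastQC 0.12.1, STAR 2.7.9a, Salmon 1.8.0, DESeq2 1.44.0 and GRCh38 were used, with no roles named; annotation release and use of strand are not given in the sources used here. In each column 100% of the values above 0 were whole multiples of 1 step, within 0.01 of a read, so whole reads were recovered. Symbols came from the supplied gene names for 35803 IDs and from GENCODE 29 for 29.

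The 13928 genes that averaged 10 normalized counts or more were fitted on log2(normalized count + 1), which understates changes of low genes, with limma 3.58.1 (R 4.3.3; treatment only, mean trend). Two-sided p-values were adjusted by Benjamini-Hochberg over all of them, threshold 0.05; "passed", "rose" and "fell" refer to it. The script was tested on simulated data. Alternatives included edgeR 4.0.16 and DESeq2 1.42.0 on recovered reads. Same-group libraries differed by more than counting noise (chi-square per gene 17.9 to 35.6).

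The genes, lists and tests were chosen with earlier results of these data known. Named are the 10 genes, every gene of a pathway list past the threshold (1 is not reported here) or else the one with the smallest p, and the 5 nearest profiles; other names are marked or were given by position or as cell type markers. HBEGF, IL6, CXCL8 and ANKRD1 also rose, by log2 values of 2.42, 2.61, 2.98 and 1.05 (adjusted p in limma = 0.0269, 0.0117, 0.0109 and 0.00404). With a library left out, HBEGF passed in 2 of 6 fits (limma adjusted p up to 0.103) and IL6 in 5 (up to 0.0629). CXCL8 and ANKRD1 passed in all 6. With no variance trend HBEGF, IL6 and CXCL8 did not pass (limma adjusted p = 0.0807, 0.0565 and 0.0557).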

Additional observations from a re-analysis of the deposited data

How the results depend on the processing

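The log2 difference of PLPP3 lay between -2.63 and -2.14 over all 16 alternatives, and was -2.37 in DESeq2 and -2.45 with libraries scaled to the same total. With PLPP3, which chose the set and supports nothing, 2 of the 10 genes were past the threshold, against 1 (PLPP3) with no filter on low values and under quantile normalization, 0 with no variance trend, and 0 to 2 with 1 library left out. Besides PLPP3 the count was 1, that of PLPP1, or 0. Directions without support turned. The log2 difference of S1PR1 was 0.0798 under quantile normalization, 0.0280 in edgeR, 0.0242 in DESeq2 and -0.32 to 0.28 with 1 library left out; with 1 library left out LPAR1 ran from -0.16 to 0.15, PLPP2 from -0.37 to 0.0433 and LPAR2 from -0.0122 to 0.47.

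Among all genes 688 passed (413 higher, 275 lower), against 103 with no variance trend, 1613 in DESeq2, 802 (279 higher, 523 lower) scaled to the same total, which moved the median of all genes by -0.10, and 81 to 994 with 1 library left out, lowest without DMSO replicate 3. Calls of the LPA making and consuming enzymes went from 0 to 1 with a pseudocount of 5, with a mean of at least 50 and in edgeR, and to 3 scaled to the same total and in DESeq2. Calls of S1P metabolism went from 1 to 0 with no variance trend, and were 0 to 1 with 1 library left out. Those of the G protein list went from 2 to 0 with no filter, under quantile normalization, scaled to the same total and with no variance trend, and were 0 to 2 with 1 library left out. The genes known to rise with LPA went from 12 to 1 with no variance trend and ran from 3 to 13 with 1 library left out. Factors known to act on PLPP3 went from 1 to 0 under quantile normalization, scaled to the same total and with no variance trend, to 2 in DESeq2, and were 0 in every fit with 1 library left out. Fewer libraries lower the power by construction, yet 994 genes passed without DMSO replicate 1, against 688 with all 6 libraries. The genes known to rise with LPA gave 13 calls without that library. The cause of the changes was not tested for any setting.

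With the replicate number as a block 2397 genes passed. The calls became 1 for the lipid phosphatase family, 3 for the LPA enzymes, 3 for S1P metabolism, 4 for the G protein list, 17 of 19 for the genes known to rise with LPA and 2 for the factors. The limma adjusted p of PLPP1 was 0.00821 with the block, against 0.0465 in the main fit. That of PLD1 was 0.0228, against 0.0519. Deviations of same-numbered libraries from their group means correlated at 0.202, 0.159 and 0.0588 across genes. These were not all above 0.1, the cut chosen here, so the main fit did not pair the samples. The cut does not show that the numbers are unpaired, and the main fit leaves any spread shared by number in its errors. Every library correlated best with its own number except CA4 replicate 3, which correlated best with DMSO replicate 2 (0.0741).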

Other observations

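Among the retinal pigment epithelium markers, chosen from that list after their values were seen, OTX2, a homeobox factor needed to form this epithelium, had 423, 630 and 547 normalized counts in DMSO and 226, 255 and 251 in CA4. All CA4 libraries lay below all DMSO libraries, and OTX2 fell by 1.11 on the log2 scale (SE 0.16, limma adjusted p = 0.0158). It no longer passed when DMSO replicate 2 or 3 or CA4 replicate 1 or 3 was left out (limma adjusted p = 0.0596 to 0.0816) and with no variance trend (0.0573). MITF, which drives pigment genes, had 620, 1085 and 951 in DMSO and 322, 647 and 402 in CA4. Its groups overlapped, and the log2 difference of -0.98 (SE 0.29) missed the threshold (limma adjusted p = 0.100). KRT18, a keratin of simple epithelia, went the other way, with 10397, 8943 and 8393 normalized counts in DMSO and 12442, 11056 and 14919 in CA4. Its groups did not overlap, and the log2 difference of 0.46 (SE 0.13) missed the threshold too (limma adjusted p = 0.0849). Of the 8 tested markers 4 had a positive and 4 a negative difference, with a median of 0.03, and 1 passed, lower in CA4, where 1.97% of all tested genes were lower and 4.94% passed in either direction. In DESeq2 3 of the 8 passed, MITF and KRT18 included (adjusted p = 0.0117 and 0.0133), where 11.6% of all tested genes did, and in edgeR 1. With the replicate number as a block OTX2 and MITF passed in limma (adjusted p = 0.00288 and 0.00375), where 2397 of 13928 tested genes did. DMSO replicate 1 was the lowest DMSO library for PLPP3, OTX2 and MITF.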
